A study of Mus musculus with 8 samples.

Results

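Chemokines and chemokine receptors were followed in preparations labelled as club cells, isolated from mouse lungs. Club cells line the small airways and secrete protective proteins. A gene was a member when a probe set annotated with exactly 1 symbol carried a name made of Cxcl, Ccl, Cx3cl, Xcl, Cxcr, Ccr, Cx3cr or Xcr, a number and at most 1 letter. A gene with several such probe sets was represented by the brightest, judged by its mean across all 8 arrays. This gave 51 genes of the 22180 with a symbol of their own, 34 ligands and 17 receptors. The rule itself reads only gene names and, among probe sets of 1 gene, the mean signal.

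The arrays compared 4 pools of club cells from Atgl KO/cTg mice with 4 pools from wt/cTg mice. Atgl, now named Pnpla2, encodes the lipase that begins the release of fatty acids from stored triglyceride. The Atgl KO/cTg pools came from 16 mice aged 38 to 46 weeks and the wt/cTg pools from 14 mice aged 41 to 48 weeks. Mice of both genotypes carried cTg, which the labels leave unexplained, received no treatment and ate standard chow, so no arm without cTg was compared. The isolation is described only as a standard protocol. Each array is a pool of 3 or 4 mice, and the genotype p-values below judge differences against the spread between pools. The design text mentions 4 sets of samples without telling which samples form a set, so pools were treated as unpaired. Values are deposited log2 signals, on which a difference of 1 is a doubling. Pnpla2 averaged 6.98 ± 0.20 in Atgl KO/cTg pools and 8.70 ± 0.11 in wt/cTg pools (SD, n = 4 each), and fell by 1.72 on the log2 scale (limma adjusted p = 0.000116). Whether its probes lie in the deleted stretch is not known here. The club cell marker Scgb1a1 averaged 12.92 ± 0.10 in Atgl KO/cTg pools and 12.99 ± 0.08 in wt/cTg pools (SD, n = 4 each). The pools thus carried the defining transcript of the labelled cell type. Markers of other cells were also read. Sftpc, the surfactant gene of alveolar type 2 cells, averaged 12.53 in Atgl KO/cTg pools and 12.93 in wt/cTg pools. The T cell gene Cd3e averaged 8.45 in Atgl KO/cTg pools and 8.60 in wt/cTg pools. Ighm, a B cell gene, averaged 12.86 in Atgl KO/cTg pools and 12.41 in wt/cTg pools. The pools therefore held RNA of cells other than club cells, and the share of each cell type was not measured.

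Chemokines are small secreted proteins that guide leukocytes along a gradient. They are named after the spacing of their first cysteines (CXC, CC, CX3C or XC) and act through G protein-coupled receptors named for the same classes. One receptor often binds several ligands, and one ligand several receptors. In the lung, epithelial cells and macrophages make CXC ligands that draw neutrophils through Cxcr2, while CC ligands draw monocytes, T cells, eosinophils and dendritic cells. The receptors sit mainly on those leukocytes. In a bulk preparation both ligand and receptor signal can come from cells other than club cells. Fewer cells of a type cannot be told apart from less RNA per cell.

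The ligands that draw neutrophils come first, because the 3 largest positive differences among ligands included 2 of them. The group is Cxcl1, Cxcl2, Cxcl3, Cxcl5 and Cxcl15. Promoters of Cxcl1, Cxcl2, Cxcl3 and Cxcl15, all on chromosome 5, were read from RefSeq (build GRCm38.p6), from 250 bases before to 50 after the start of the gene, all on the plus strand. That of Cxcl5 was not used here. They are shown as the sequences of the ligand group described at most length. Capitals mark GGAANTTCC, a palindromic form of the site bound by NF-kB, the factor that switches on inflammatory genes.
Cxcl1 (chr5:90890995-90891294): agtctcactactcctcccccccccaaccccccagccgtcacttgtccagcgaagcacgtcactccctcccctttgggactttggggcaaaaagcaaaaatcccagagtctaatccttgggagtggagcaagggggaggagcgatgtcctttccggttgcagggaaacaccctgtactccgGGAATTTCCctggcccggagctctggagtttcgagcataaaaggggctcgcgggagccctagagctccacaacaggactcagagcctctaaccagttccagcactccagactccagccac
Cxcl2 (chr5:90903649-90903948): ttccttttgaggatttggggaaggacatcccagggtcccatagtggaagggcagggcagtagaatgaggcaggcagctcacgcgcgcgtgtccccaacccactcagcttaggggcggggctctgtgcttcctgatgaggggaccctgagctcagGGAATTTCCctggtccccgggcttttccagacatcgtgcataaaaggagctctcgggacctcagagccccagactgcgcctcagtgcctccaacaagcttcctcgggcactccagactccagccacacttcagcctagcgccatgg
Cxcl3 (chr5:90785851-90786150): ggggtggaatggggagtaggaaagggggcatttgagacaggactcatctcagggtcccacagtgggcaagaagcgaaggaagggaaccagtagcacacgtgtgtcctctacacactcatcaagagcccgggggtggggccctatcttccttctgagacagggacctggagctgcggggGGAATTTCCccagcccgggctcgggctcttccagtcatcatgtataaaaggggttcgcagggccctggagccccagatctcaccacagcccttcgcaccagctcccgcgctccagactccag
Cxcl15 (chr5:90794284-90794583): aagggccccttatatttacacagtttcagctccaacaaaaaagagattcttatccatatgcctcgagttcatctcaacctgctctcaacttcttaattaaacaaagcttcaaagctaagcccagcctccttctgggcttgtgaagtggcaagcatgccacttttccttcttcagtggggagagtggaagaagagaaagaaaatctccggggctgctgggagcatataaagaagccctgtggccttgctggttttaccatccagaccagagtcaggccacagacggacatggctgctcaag
The motif, which reads the same on both strands, began 70 bases before the start of Cxcl1, 96 before that of Cxcl2 and 72 before that of Cxcl3. These letters were not in the Cxcl15 window. Of the 37 members with a promoter in the table, 7 held the motif (18.9%), namely Ccl1, Ccl12, Ccr3, Cxcl1, Cxcl10, Cxcl2 and Cxcl3, against 305 of all 32851 promoters (0.928%). A member counted if any of its promoters matched, while the background counted each promoter, so the shares differ in unit. A match is a description of the sequence and not a measured site. Members with the motif lay on both sides of 0 between genotypes, with Ccl12 at -0.42 and Cxcl10 at -0.27, and Cxcl1 at 0.50.

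Most members gave signal above the level filter, and ligands were among the brightest genes. The filter was the median of all probe sets, 5.18, and 45 members (31 ligands and 14 receptors) lay above it and were tested. The 6 below it were Cxcl11, Ccl1, Ccl26, Ccr9, Ccr4 and Ccr3. A mean over 8 arrays above 9 was reached by 11 ligands and 2 receptors, 14 ligands and 7 receptors lay between 7 and 9, and 6 ligands and 5 receptors lay between the filter and 7. Probe sets differ in how strongly they bind, so the order of signals is not an order of transcript amounts.

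The brightest ligand was Cxcl15 (lungkine, a neutrophil attractant of lung epithelium), with a mean of 11.99. Next came Ccl5, which draws T cells, monocytes and eosinophils, at 11.24. Cxcl17, made by mucosal epithelium, averaged 10.76, and Ccl6, made largely by macrophages, averaged 10.55. Ccl17, a ligand of Ccr4, averaged 10.13 and Cxcl13, the B cell attractant, 10.07. The gap between Ccl17 and Cxcl13 was smaller than the SD of Cxcl13 across pools (0.45 in each genotype). Between Cxcl17 and Ccl6 the gap was larger than the SDs of both genes, which were at most 0.13. Ccl8 (9.53) and Ccl11, an eosinophil attractant also named eotaxin (9.19), closed the brightest 8 ligands. Among receptors the brightest were Ccr2, found on inflammatory monocytes, at 9.61, and Cx3cr1, found on patrolling monocytes and macrophages, at 9.24. Cxcr4, the receptor of Cxcl12 on most leukocytes, followed at 8.90 and Cxcr6, found on T and NKT cells, at 8.04. Ccr7, which brings dendritic cells and naive T cells to lymph nodes, averaged 7.49 and Cxcr3, found on activated T and NK cells, 7.23.

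**Figure D1:**
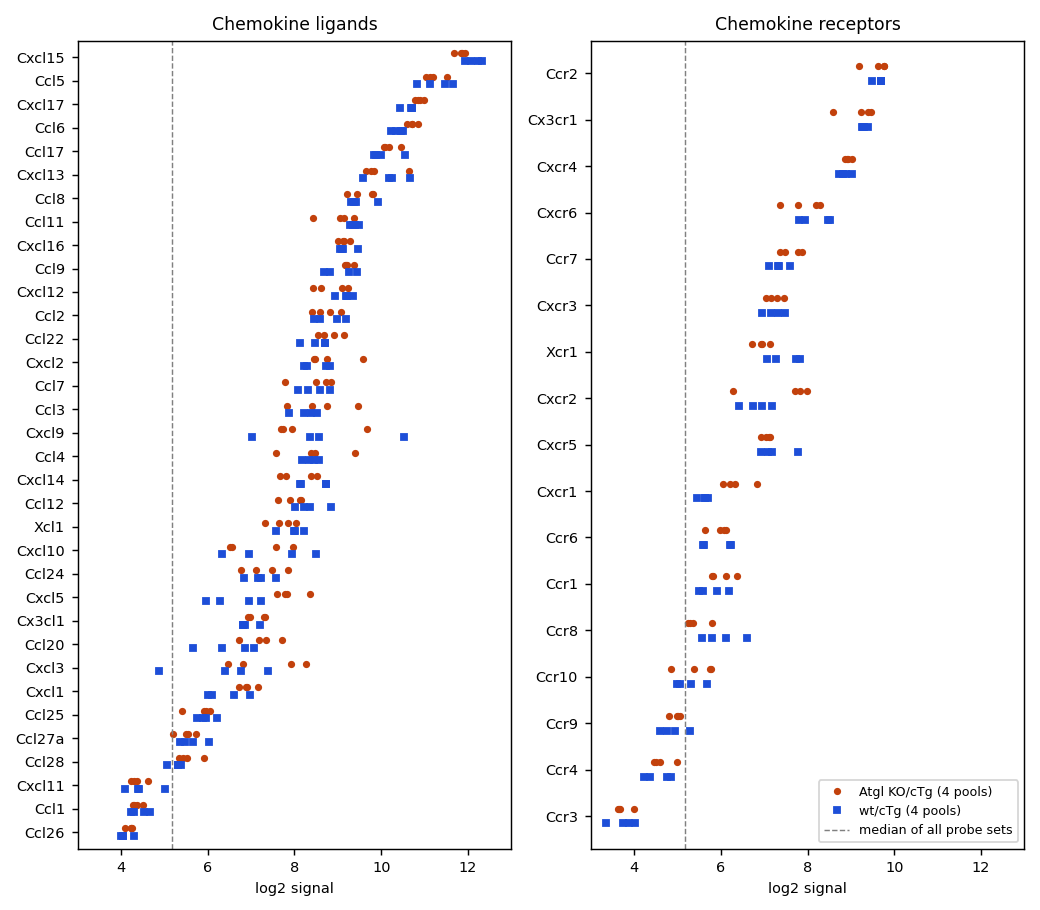
Log2 signal (x axis) of all 51 genes, ligands in the left panel and receptors in the right, ranked by mean, with circles for Atgl KO/cTg pools, squares for wt/cTg pools and a dashed line at the filter of 5.18. Means above 9 were reached by 11 ligands and 2 receptors, and 3 genes of each kind lie below the filter.

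No chemokine or receptor passed the test across all genes between Atgl KO/cTg and wt/cTg pools. With limma and Benjamini-Hochberg adjustment over 13112 genes, 0 of the 45 members were called, where 0.0991% of all genes were (13 genes). That count for all genes was 1 to 25 with single pools left out and 1 under quantile normalization or without a variance trend. The smallest adjusted p among members was 0.179, for Cxcl5. At an unadjusted limma p under 0.05 there were 11 members, or 24.4%, where 7.95% of all genes tested lay. Of these 11, 6 were higher (3.39% of all genes) and 5 lower (4.56% of all genes) in Atgl KO/cTg pools. The exact permutation test over arrays put 4 of the 45 at its smallest possible p of 0.0286. These 4, Cxcl5, Cxcr1, Ccl6 and Cxcl17, were the members whose genotypes did not overlap (8.89%, where 4.35% of all genes did not), and all 4 were higher in Atgl KO/cTg pools (1.74% of all genes).

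Differences pointed both ways. Of the 45 tested members, 25 lay above 0 and 20 below, with a median of 0.04 on the log2 scale beside -0.01 over all genes tested. Their sizes were larger than those of most genes, with a median absolute difference of 0.25 beside 0.09 over all genes. The median SD of the members across pools was 0.28 for Atgl KO/cTg and 0.30 for wt/cTg. No SD over all genes was set beside these, and the part of spread between pools in the sizes was not tested. Counts depended on single pools, although for the same genes leaving pools out can only keep or raise the number without overlap. Without wt/cTg pool 1, Cxcl5 passed the threshold (1.49, limma adjusted p = 0.0475) and 9 members did not overlap, where 8.27% of all genes did not. Without Atgl KO/cTg pool 4, 17 members lay at an unadjusted p under 0.05, where 9.58% of all genes did, and 8 did not overlap, where 9.46% of all genes did not.

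**Figure D2:**
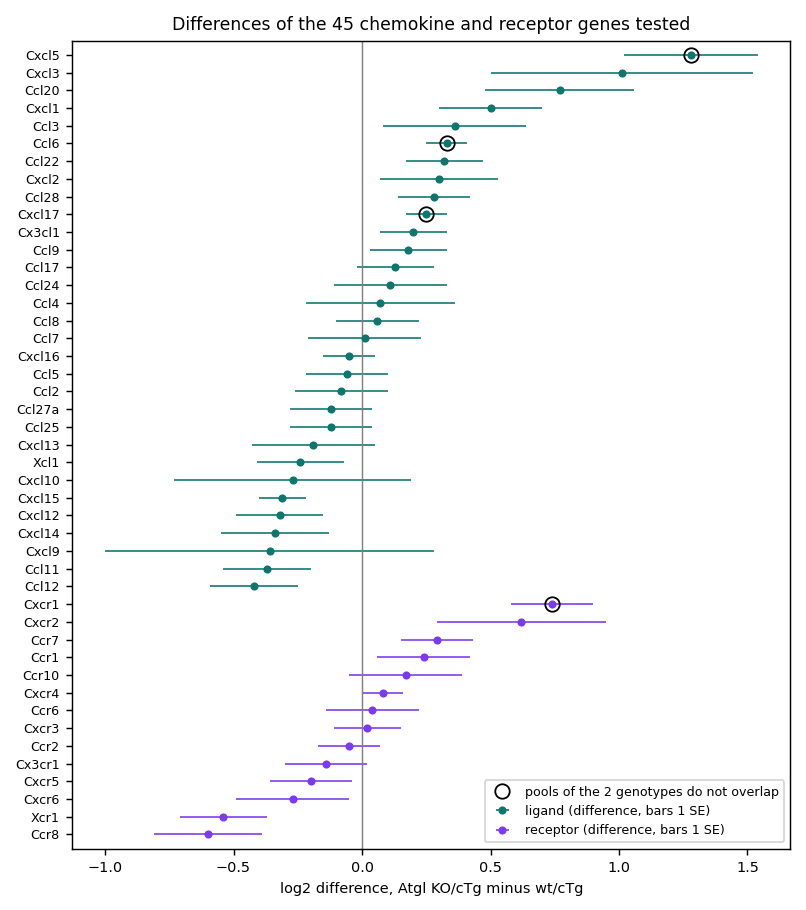
Difference Atgl KO/cTg minus wt/cTg in log2 signal for the 45 tested chemokine and receptor genes, ligands above receptors and ordered by size, with bars of 1 SE and rings where the genotypes do not overlap. Cxcl5 tops the ligands with 1.28, Cxcr1 the receptors with 0.74, and 25 of 45 points lie above 0.

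Among the 5 ligands that draw neutrophils, 4 lay above 0 and Cxcl15 lay below, with a median of 0.50 and none called. Cxcl5 (probe set 17438955), a Cxcr2 ligand that lung epithelium secretes, gave the largest difference of all members. It read 7.83, 8.35, 7.60 and 7.79 in Atgl KO/cTg pools, against 7.23, 6.29, 6.95 and 5.97 in wt/cTg pools. Every Atgl KO/cTg pool lay above every wt/cTg pool. The means were 7.89 ± 0.32 for Atgl KO/cTg and 6.61 ± 0.58 for wt/cTg (n = 4 each, ± SD), a ratio of 2.43. The log2 difference of 1.28 (SE 0.26) had a limma adjusted p of 0.179 and ranged from 1.06 to 1.49 when single pools were left out.

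Cxcl3 (probe set 17438975), another Cxcr2 ligand, read 7.93, 8.26, 6.82 and 6.46 in Atgl KO/cTg pools, against 7.38, 6.40, 6.77 and 4.88 in wt/cTg pools. The genotypes overlapped, and the lowest value was that of wt/cTg pool 4. Its difference of 1.01 (SE 0.51, limma adjusted p = 0.66) was 0.52 without that pool. Cxcl1 (probe set 17438987), the mouse KC protein, read 6.90, 7.17, 6.73 and 6.88 in Atgl KO/cTg pools, against 6.97, 6.10, 6.60 and 6.01 in wt/cTg pools. Here wt/cTg pool 1 reached the Atgl KO/cTg range and the other wt/cTg pools lay below it. The difference was 0.50 (SE 0.20, limma adjusted p = 0.547). Cxcl2 (probe set 17438995), also named MIP-2, read 8.76, 9.57, 8.47 and 8.45 in Atgl KO/cTg pools, against 8.73, 8.23, 8.82 and 8.28 in wt/cTg pools. Atgl KO/cTg pool 2 alone stood out, and the difference of 0.30 was 0.04 without it (limma adjusted p = 0.798 with all pools and 0.993 without that one).

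Cxcl15 (probe set 17438980) went the other way. It read 11.87, 11.84, 11.67 and 11.93 in Atgl KO/cTg pools, against 11.93, 12.24, 12.08 and 12.32 in wt/cTg pools. The highest Atgl KO/cTg pool and the lowest wt/cTg pool both read 11.93, and the other pools did not overlap. Its means were 11.83 ± 0.11 for Atgl KO/cTg and 12.14 ± 0.17 for wt/cTg (n = 4 each, ± SD). The difference was -0.31 (SE 0.09), with a limma adjusted p of 0.399 and an exact permutation p of 0.0571.

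Neutrophils carry Cxcr2, the receptor of Cxcl1, Cxcl2, Cxcl3 and Cxcl5, and the related Cxcr1. Cxcr1 (probe set 17224251) read 6.04, 6.22, 6.83 and 6.32 in Atgl KO/cTg pools, against 5.64, 5.70, 5.46 and 5.64 in wt/cTg pools. The genotypes did not overlap, and the wt/cTg pools lay close to the filter. The means were 6.35 ± 0.34 for Atgl KO/cTg and 5.61 ± 0.10 for wt/cTg (n = 4 each, ± SD), a difference of 0.74 (SE 0.16, limma adjusted p = 0.231). Cxcr2 (probe set 17214142) read 7.72, 7.99, 7.82 and 6.27 in Atgl KO/cTg pools, against 7.19, 6.74, 6.43 and 6.95 in wt/cTg pools. Atgl KO/cTg pools 1, 2 and 3 lay above all wt/cTg pools, and pool 4 lay below them all. The difference of 0.62 (SE 0.33, limma adjusted p = 0.678) was 1.02 without Atgl KO/cTg pool 4.

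**Figure D3:**
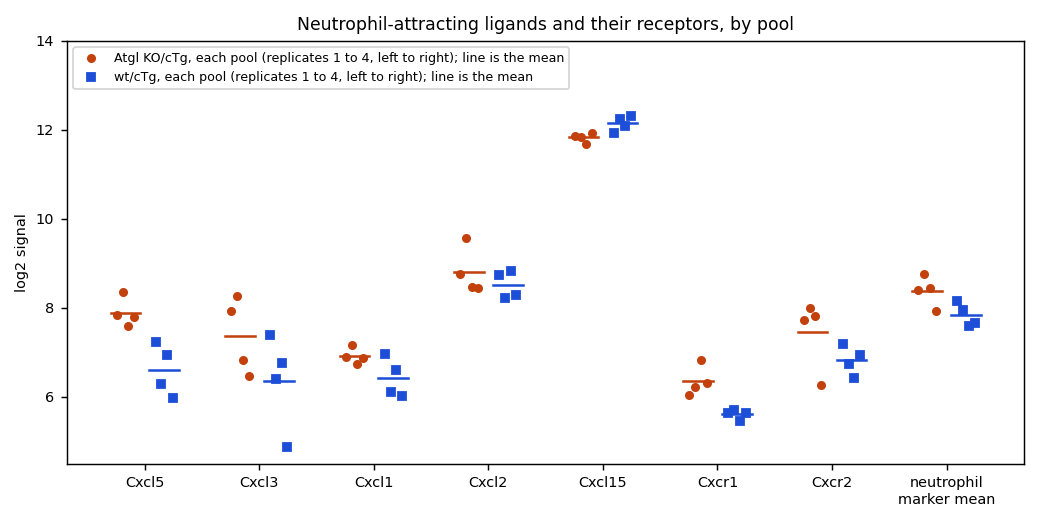
Log2 signal on each array for Cxcl5, Cxcl3, Cxcl1, Cxcl2, Cxcl15, Cxcr1 and Cxcr2 and for the mean of the neutrophil markers, with Atgl KO/cTg left of wt/cTg, points for pools and lines for means. Cxcl5 and Cxcr1 separate the genotypes fully, and Cxcr2 does so except for the Atgl KO/cTg pool at 6.27.

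Markers of neutrophils were read beside these genes. Of 13 neutrophil markers, 8 passed the filter, and all 8 lay above 0 with a median of 0.52 and none called (smallest limma adjusted p = 0.334). Their mean log2 signal was 8.40, 8.76, 8.44 and 7.93 in Atgl KO/cTg pools, against 8.16, 7.96, 7.59 and 7.67 in wt/cTg pools. The genotypes overlapped, and Atgl KO/cTg pool 4, the low one for Cxcr2, was also the lowest of its genotype here. Cd177, a surface protein of neutrophils, averaged 7.62 in Atgl KO/cTg pools and 6.56 in wt/cTg pools (1.07, limma adjusted p = 0.334). S100a9, a calcium-binding protein abundant in neutrophils, averaged 10.69 in Atgl KO/cTg pools and 10.13 in wt/cTg pools (0.56, limma adjusted p = 0.524). The markers Ngp, Camp, Elane, Mpo and Ly6g lay below the filter. Alveolar type 2 markers ran from 10.07 to 10.39 in Atgl KO/cTg pools and from 10.58 to 11.13 in wt/cTg pools, with all 10 below 0 and 5 of them called. None of the 10 was called without Atgl KO/cTg pool 1, wt/cTg pool 2 or wt/cTg pool 4, where Pnpla2 was the 1 gene of the array that passed. Goblet cell markers ran from 8.06 to 9.19 in Atgl KO/cTg pools and from 7.02 to 8.19 in wt/cTg pools, with all 9 above 0 and none called. The part of these cells in the differences of Cxcl5, Cxcl15, Cxcr1 and Cxcr2 was not tested.

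Among inflammatory CC ligands, which draw monocytes, macrophages and T cells, 6 of 9 lay above 0 with a median of 0.06. Ccl6 (probe set 17266960) was the member of this group whose genotypes did not overlap. It read 10.72, 10.59, 10.85 and 10.70 in Atgl KO/cTg pools, against 10.45, 10.23, 10.50 and 10.35 in wt/cTg pools. The nearest pools of the genotypes, at 10.59 (Atgl KO/cTg) and 10.50 (wt/cTg), were closer than 1 SD (0.10 for Atgl KO/cTg and 0.12 for wt/cTg). The difference was 0.33 (SE 0.08, limma adjusted p = 0.29) and ranged from 0.28 to 0.37 when single pools were left out. The 10 tested alveolar macrophage markers averaged 8.74 in Atgl KO/cTg pools and 8.71 in wt/cTg pools, with 6 of them above 0 and none called.

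Ccl12 (probe set 17254059), a Ccr2 ligand of mice, was the group's lowest difference. It read 7.61, 7.89, 8.12 and 8.15 in Atgl KO/cTg pools, against 8.36, 8.02, 8.84 and 8.21 in wt/cTg pools. Only wt/cTg pool 2 fell within the Atgl KO/cTg range, and the difference was -0.42 (SE 0.17, limma adjusted p = 0.58). It was -0.26 without wt/cTg pool 3. The value was -0.23 with runs of mouse numbers as a block, where that pool stood alone and did not bear on the difference. The other Ccr2 ligands showed no such gap, since Ccl2 gave -0.08 and Ccl7 0.01. Ccl3, which binds Ccr1, read 8.76, 9.47, 8.41 and 7.82 in Atgl KO/cTg pools, against 8.53, 8.22, 8.39 and 7.88 in wt/cTg pools. Atgl KO/cTg pools gave both its highest and its lowest value (0.36, limma adjusted p = 0.798). Ccl9 (0.18), Ccl4 (0.07), Ccl8 (0.06) and Ccl5 (-0.06) completed the group, and their genotypes overlapped.

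Cxcl17 (probe set 17487945) was the other bright ligand whose genotypes did not overlap. It is a mucosal protein that draws monocytes, macrophages and dendritic cells. It read 10.84, 10.99, 10.79 and 10.89 in Atgl KO/cTg pools, against 10.68, 10.71, 10.71 and 10.43 in wt/cTg pools. The SD was 0.08 for Atgl KO/cTg and 0.13 for wt/cTg, where pool 4 lay apart from the rest. The difference was 0.25 (SE 0.08, limma adjusted p = 0.446), and 0.18 was the lowest value with a single pool left out. Of the 6 other CXC and CX3C ligands, Cxcl17 included, 2 lay above 0, the second being Cx3cl1 (0.20), the membrane-bound ligand of Cx3cr1. Cxcl12, the stromal ligand that holds leukocytes through Cxcr4, gave -0.32, Cxcl14 -0.34, Cxcl13 -0.19 and Cxcl16 -0.05, each with a limma adjusted p of at least 0.673. Fibroblast and smooth muscle markers lay at 7.95 to 8.45 in Atgl KO/cTg pools and 8.32 to 8.77 in wt/cTg pools, with all 10 below 0 and none called. Their part in the values of Cxcl12 and Cxcl14 was not tested.

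Ligands induced by interferon gamma varied more between pools than between genotypes. Cxcl9 read 7.95, 9.68, 7.68 and 7.74 in Atgl KO/cTg pools, against 8.35, 8.57, 10.53 and 7.03 in wt/cTg pools. Cxcl10 read 7.57, 7.97, 6.57 and 6.51 in Atgl KO/cTg pools, against 8.50, 6.94, 7.95 and 6.32 in wt/cTg pools. Each genotype held high and low pools for both, and the SDs of Cxcl9 (0.95 for Atgl KO/cTg, 1.45 for wt/cTg) were the largest of any member. Their differences, -0.36 and -0.27, had limma adjusted p-values of 0.936 and 0.931. Cxcl11, the third ligand of Cxcr3, lay below the filter.

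Of the eosinophil and Th2 ligands, 4 of 6 passed the filter and 3 of these lay above 0. Ccl11 (probe set 17254053) was the exception. It read 8.42, 9.05, 9.15 and 9.38 in Atgl KO/cTg pools, against 9.27, 9.35, 9.39 and 9.48 in wt/cTg pools. Only Atgl KO/cTg pool 4 reached the wt/cTg range. The difference of -0.37 (SE 0.17, limma adjusted p = 0.616) was -0.18 without Atgl KO/cTg pool 1. Ccl22 (0.32), Ccl17 (0.13) and Ccl24 (0.11) overlapped between genotypes. Their receptors Ccr3 and Ccr4 lay below the filter, at means of 3.74 and 4.59.

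The homeostatic and mucosal ligands numbered 5, of which Ccl20 and Ccl28 lay above 0. Ccl20 (probe set 17214857), the epithelial ligand of Ccr6, read 7.35, 7.72, 6.73 and 7.19 in Atgl KO/cTg pools, against 7.06, 6.33, 6.85 and 5.67 in wt/cTg pools. Its lowest pool was wt/cTg pool 4, as for Cxcl5 and Cxcl3. The difference was 0.77 (SE 0.29, limma adjusted p = 0.524), and 0.50 without that pool. Ccl28, a mucosal ligand of Ccr10, gave 0.28 at a mean of 5.41, close to the filter. Xcl1 (-0.24), Ccl25 (-0.12) and Ccl27a (-0.12) lay below 0, and the Ccl27a signal is uncertain because near-identical copies of that gene exist in the mouse genome.

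**Figure D4:**
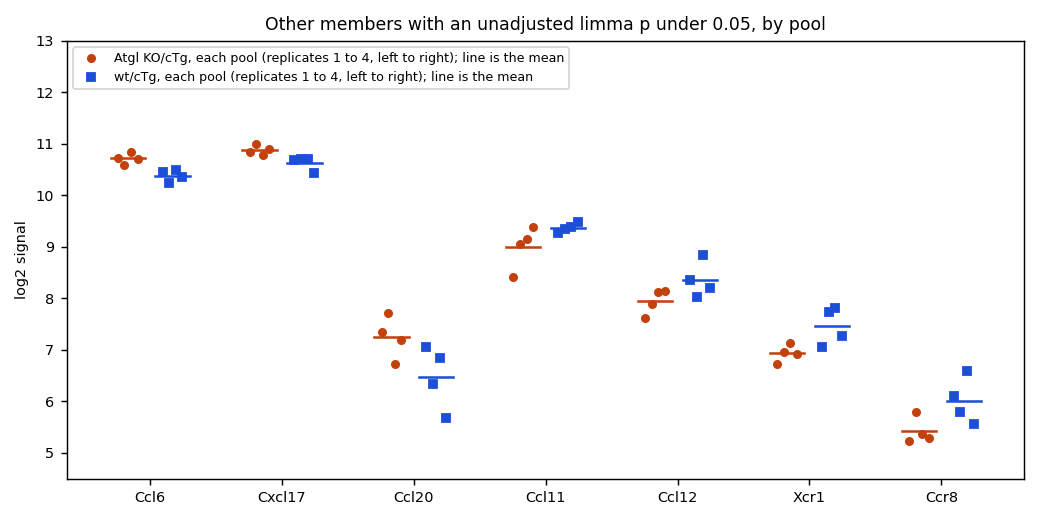
Log2 signal on each array for Ccl6, Cxcl17, Ccl20, Ccl11, Ccl12, Xcr1 and Ccr8, with Atgl KO/cTg left of wt/cTg, points for pools and lines for means. Ccl6 and Cxcl17 separate the genotypes narrowly, and the other 5 overlap.

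Receptors of other leukocytes gave a mixed picture. Of 8 tested CXC, CX3C and XC receptors 4 lay above 0, and of 6 tested CC receptors 4 did. Xcr1 (probe set 17532564), which marks the dendritic cells that cross-present antigen, read 6.73, 6.96, 7.14 and 6.92 in Atgl KO/cTg pools, against 7.06, 7.74, 7.82 and 7.27 in wt/cTg pools. Only wt/cTg pool 1 fell within the Atgl KO/cTg range, and the difference was -0.54 (SE 0.17, limma adjusted p = 0.446). Ccr8 (probe set 17523158), found on regulatory and Th2 cells, read 5.24, 5.80, 5.36 and 5.29 in Atgl KO/cTg pools, against 6.11, 5.80, 6.60 and 5.56 in wt/cTg pools. The genotypes overlapped through Atgl KO/cTg pool 2 and wt/cTg pools 2 and 4 (-0.60, SE 0.21, limma adjusted p = 0.524). Of its ligands, Ccl8 gave 0.06 and Ccl1 lay below the filter. Dendritic cell markers averaged 6.69 to 7.10 in Atgl KO/cTg pools and 7.03 to 7.07 in wt/cTg pools, and 5 of the 7 tested lay below 0. The differences of these 7 ran from -0.65 to 0.10 with a median of -0.08. The lowest was that of Cd209a, which averaged 7.03 in Atgl KO/cTg pools and 7.68 in wt/cTg pools (-0.65, limma adjusted p = 0.182). Itgae, also on the list, gave -0.22 (limma adjusted p = 0.743). The part of dendritic cells in the Xcr1 difference was not tested.

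The brightest receptors had differences between -0.27 and 0.29. Ccr2 gave -0.05, Cx3cr1 -0.14, Cxcr4 0.08, Cxcr6 -0.27, Ccr7 0.29 and Cxcr3 0.02, all with limma adjusted p-values of at least 0.646. T and NK cell markers ran from 7.58 to 8.08 in Atgl KO/cTg pools and from 7.43 to 8.16 in wt/cTg pools. The other tested receptors, Ccr1 (0.24), Ccr10 (0.17), Ccr6 (0.04) and Cxcr5 (-0.20), overlapped between genotypes as well.

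Ligands and their receptors were then set side by side across arrays. Of 34 textbook pairs, 22 had both members tested, over 12 receptors, and the 2 members had differences of the same sign in 14 of them. Pearson correlations over the 8 arrays were tested with exact permutation and adjusted over the 22 pairs, and 0 passed a threshold of 0.05, while 3 had an unadjusted exact permutation p under 0.05. The pairs share arrays, and Cxcr2 stands in 4 of them. Cxcl9 and Cxcr3 gave r = 0.89 and rho = 0.81 (exact permutation p = 0.00253 and 0.0218, adjusted p = 0.0557 and 0.24, n = 8). Leaving out the 2 arrays farthest from the Cxcl9 median gave r = 0.74, and within genotypes r was 0.91. Cxcl10 and Cxcr3 gave r = 0.85 and rho = 0.88 (exact permutation p = 0.00836 and 0.00724, adjusted p = 0.0919 and 0.159, n = 8), with r = 0.96 without the 2 farthest arrays and 0.88 within genotypes. Cxcr3 is carried by the T and NK cells that Cxcl9 and Cxcl10 draw, and neither ligand nor receptor separated the genotypes. With arrays centred on their medians both pairs passed (adjusted exact permutation p = 0.0338 for each), and without wt/cTg pool 1 the Cxcl10 pair did (r = 0.97, adjusted exact permutation p = 0.0175).

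Ccl9 and Ccr1 gave r = 0.76 and rho = 0.71 (exact permutation p = 0.0277 and 0.0576, adjusted p = 0.203 and 0.317, n = 8). Without the 2 arrays farthest from the Ccl9 median r was 0.30, and within genotypes r was 0.72. Leaving out those arrays also narrows the range of Ccl9, and whether the relation rests on them was not tested. For Cxcr2, r was 0.58 with Cxcl3, 0.52 with Cxcl2, 0.51 with Cxcl5 and 0.44 with Cxcl1. None of these passed the exact permutation test over the 8 arrays before adjustment. Within genotypes, where no test was run, they were 0.44, 0.42, 0.17 and 0.17. For Xcl1 and Xcr1 r was 0.58, and for Ccl20 and Ccr6 it was 0.53.

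**Figure D5:**
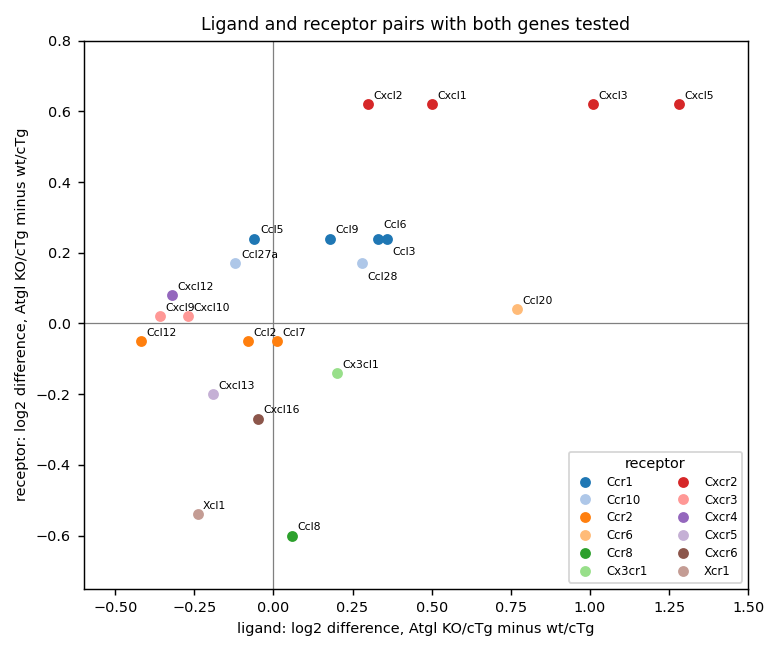
Difference Atgl KO/cTg minus wt/cTg in log2 signal of the ligand (x axis) and of its receptor (y axis) for the 22 pairs with both members tested, each point named by its ligand and coloured by its receptor. The 4 ligands of Cxcr2 lie in the upper right with the receptor at 0.62, and 14 of 22 pairs have the same sign for both members.

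Other genes of the chemokine pathway were read from lists of platelet chemokines, scavenging receptors, receptor signalling, inducing cytokines, NF-kB factors, and peptidases or glycans that cut or hold chemokines. Of 67 such genes on the array 61 were tested, 33 lay above 0 and 28 below, and the median was 0.01. None was called by limma, and 8 (13.1%) had an unadjusted limma p under 0.05, 4 higher and 4 lower, where 7.95% of all genes tested had one (3.39% higher and 4.56% lower). Genotypes did not overlap for 2 of the 61, Mmp12 and Grk5 (3.28%, where 4.35% of all genes did not). Mmp12, a macrophage elastase that trims CXC ligands, averaged 7.50 in Atgl KO/cTg pools and 6.66 in wt/cTg pools. Its genotypes did not overlap (0.84, limma adjusted p = 0.271), and without wt/cTg pool 1 it passed (1.02, limma adjusted p = 0.0389). Mmp8, the neutrophil collagenase, which is also on the neutrophil list, averaged 7.04 in Atgl KO/cTg pools and 6.17 in wt/cTg pools (0.87, limma adjusted p = 0.4).

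Of the receptor signalling genes, 11 of 19 lay above 0. Grk5, a kinase that desensitises G protein-coupled receptors, averaged 8.15 in Atgl KO/cTg pools and 8.52 in wt/cTg pools without overlap (-0.37, limma adjusted p = 0.399). Among 11 NF-kB genes 7 lay above 0 with a median of 0.01, and Zc3h12a, an RNase that degrades inflammatory mRNAs, gave 0.33 (limma adjusted p = 0.547). The platelet chemokines Pf4 (-0.30) and Ppbp (-0.40) lay below 0, and Ppbp gave -0.08 without Atgl KO/cTg pool 4. They stood beside platelet markers, which include both, at 6.74 to 7.55 in Atgl KO/cTg pools and 7.34 to 7.56 in wt/cTg pools. All 4 tested scavenging or chemokine-like receptors lay below 0, with Ackr2, which removes inflammatory CC ligands, and Cmklr1 at -0.29 each (limma adjusted p = 0.658 and 0.679). Of the inducing cytokines, Il1b gave 0.41 (limma adjusted p = 0.722), Tnf 0.02 and Il17a 0.17, while Il6, Ifng, Csf2 and Csf3 lay below the filter.

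Single pools carried many of the extreme member values. Atgl KO/cTg pool 2 was the highest array for 16 of the 45 tested members (35.6%, where it was the highest for 22.9% of all genes tested). Among wt/cTg pools, pool 3 was the highest for 12 members (26.7%, and 7.81% of all genes) and pool 4 the lowest for 13 (28.9%, and 15.4% of all genes). Atgl KO/cTg pool 2 and wt/cTg pool 4 also had the most extreme scores, on opposite sides, along the first principal component. Without both arrays, 9 members did not overlap, where 10.2% of all genes did not. Cxcl5, Cxcr1, Ccl6 and Cxcl17 were among them by construction, since leaving pools out cannot make separate genotypes overlap. The differences without both arrays were 0.91 for Cxcl5, 0.22 for Cxcl3, 0.34 for Ccl20 and 0.14 for Cxcl17.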

How the data were processed

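Gene expression was measured on 8 mouse arrays, 4 per genotype, and grouped by the genotype label. Per the labels, biotin-labelled amplified RNA of each pool was hybridised. The authors deposited 1 log2 signal per probe set and array, which was taken unchanged. For background correction, normalization and software, the sources used here give no method. That the scale is log2 follows from the range of the values (1.85 to 13.54, array medians 5.12 to 5.24). Array correlations ran from 0.965 to 0.985, and the number of arrays limits the precision.

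Of 41345 probe sets, 23521 had 1 symbol in the platform annotation, 1814 several and 16010 none. Only the first kind was named. Genes with a mean above 5.18, the median of all probe sets, were tested (13112). The filter used both genotypes together. The comparison used limma 3.58.1 (R 4.3.3; eBayes with a variance trend, two-sided, Benjamini-Hochberg adjustment over all genes tested, threshold 0.05), and single genes also with the exact two-sided permutation test over 70 arrangements. Figures were drawn with matplotlib 3.10.9. The fit was tested on simulated data.

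The rule for names took members whose genotypes did not overlap, the 8 smallest p-values, the brightest 8 ligands and 6 receptors, their pair partners where a partner was named for the first 2 reasons, and up to 3 genes of each list. All other members with a value, among them Cxcl2, Cxcl3, Cxcl9, Cxcl10, Ccl12 and Cxcl12, and Il1b, Tnf, Il17a, Sftpc and Cd3e, were named after their values were seen. Members and lists were chosen with earlier results of these data known. Alternatives covered the filter, the variance prior, normalization, array weights, probe set choice, age, mouse number runs, the pools left out and the pair of arrays that lay farthest apart on the first principal component.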

Additional observations from a re-analysis of the deposited data

Results flagged for a closer look

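Within each genotype, the gap between the highest or lowest pool and its neighbour was set against the range of the 4 pools. The 45 measures were Pnpla2, part of the members and means of cell marker lists. Tested members such as Ccl2, Ccl4 and Ccl7 were not screened. The check marked 5 of 90 groups, where chance alone marks about 1 in 20. In Atgl KO/cTg, pool 4 read 6.27 for Cxcr2, while the other pools read 7.72 to 7.99, and pool 2 read 9.68 for Cxcl9, while the others read 7.68 to 7.95. In wt/cTg, pool 4 read 10.43 for Cxcl17, while the others read 10.68 to 10.71. The same pool read 9.49 for Ccr2, while the others all read 9.69. In wt/cTg, pool 3 read 9.92 for Ccl8, while the others read 9.31 to 9.41.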

How the results depend on the processing

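Member counts and single gene differences were recomputed under up to 20 other settings. Marker means and ligand and receptor pairs were recomputed under fewer of these. Pnpla2 passed in all 20. For 34 of the 45 tested members there were 676 such differences. Of these, 649 kept sign and side of the threshold, 26 changed sign and 1, Cxcl5 without wt/cTg pool 1, newly passed. The other tested members were not followed in this way, among them Ccl2, Ccl4 and Ccl7, whose differences lay near 0. Of the 34 members, 24 changed sign nowhere. With single pools left out, 0 to 1 members were called (1 to 25 of all genes), 9 to 17 lay at an unadjusted p under 0.05 and 4 to 9 did not overlap. In these settings 0 to 1 pathway genes were called and 0 to 1 ligand and receptor pairs passed. Without Atgl KO/cTg pool 4, 9.58% of all genes lay at an unadjusted limma p under 0.05 and 9.46% did not overlap. Without wt/cTg pool 1 these shares were 7.96% and 8.27%, and with all pools 7.95% and 4.35%. The exact permutation test put 4 members at an unadjusted p under 0.05. Without the pair of arrays farthest apart on the first principal component, 9 members did not overlap, where 10.2% of all genes did not. For the same genes, leaving pools out can only keep or raise such counts. After median centring 2 pairs passed.

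Signs changed for 10 of the 34 members followed, among them Cxcl9 (-0.36 with all pools), Ccl3 (0.36) and Cxcl2 (0.30). With mouse number runs as a block, Ccl5 gave 0.01 and Cxcl9 0.13. With array weights, Ccl8 gave -0.01 and Cxcr3 -0.02, and with median centring Cxcr3 gave -0.01. Without the pair of arrays farthest apart on the first principal component, Ccl8 gave -0.08, Cxcr3 -0.15, Ccr6 -0.08, Cxcl2 -0.04 and Ccl3 -0.05. With single pools left out, Ccl5 ranged from -0.21 to 0.07, Ccl8 from -0.02 to 0.20, Ccr2 from -0.11 to 0.08, Cx3cr1 from -0.23 to 0.06, Cxcr3 from -0.08 to 0.11, Ccr6 from -0.07 to 0.15, Cxcl9 from -0.89 to 0.28 and Cxcl10 from -0.64 to 0.09. The cause was not tested. No paired analysis was run. The labels carry no replicate numbers and do not tell which samples form the 4 sets that the design text mentions. Runs of mouse numbers in the titles stood in as a block, and the labels do not call them batches. The wt/cTg pool 3 stood alone in its run, so it did not bear on the genotype differences of that setting. Scanner files, detection calls and scan dates were not used here, so signal over background and batches could not be tested.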
